A study of Mus musculus with 12 samples.

Results

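The genes described here are brakes and targets of growth factor signaling through the kinase ERK, chosen by name: the phosphatase genes Dusp1, Dusp4 and Dusp6, the inhibitor genes Spry1, Spry2, Spry4 and Spred1, and the transcription factor genes Etv1, Etv4 and Etv5. All 10 were among the 35385 gene symbols of the deposited tables. All 10 also passed the filter of at least 1 TPM (a transcript abundance scaled for transcript length and within each library) in at least 3 libraries, as 12009 genes did, and each had at least 1 TPM in all 3 vehicle libraries. RNA was measured in mouse oligodendrocyte progenitor cells (OPCs) grown from pluripotent stem cells. The 4 groups were vehicle (DMSO), cetylpyridinium chloride (CPC), C12-C14-Alkyl(ethylbenzyl)dimethylammonium chloride (AEBDAC) and methyltrioctylammonium chloride (MTOAC), which are quaternary ammonium compounds. Exposure lasted 4 h in every group and each compound was given at its own IC75, so the doses differed, and the labels give no concentrations. Each group had 3 libraries, numbered 1 to 3, and the labels name no separate cultures for them, so that the spread behind each p-value may be technical. All groups shared the medium, whose stated supplements for culture included IGF-1, NT3 and cAMP, agents that themselves act on ERK or cAMP signaling. The question addressed is whether transcripts that report on ERK signaling moved when OPCs met these compounds.

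Growth factor receptors such as PDGFRA on OPCs activate RAS, then the kinases RAF, MEK and ERK, and ERK switches on genes in the nucleus. Some of those genes encode its own brakes. Dual-specificity phosphatases remove the activating phosphates from ERK and, for some family members, from the related kinases p38 and JNK, while Sprouty and SPRED proteins hold back the pathway upstream of ERK. ETV1, ETV4 and ETV5 are ETS-family transcription factors whose genes respond to fibroblast growth factors in many tissues. In OPCs this pathway supports proliferation under platelet-derived and fibroblast growth factors and later takes part in myelin growth.

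The promoters of 4 of these genes are shown because their transcripts moved together across libraries, as described below. Each is the 250 bases before the RefSeq transcription start on GRCm38.p6, printed 5′ to 3′ on the gene's strand. They lie at chr17:26508473-26508722 on the minus strand for Dusp1, chr10:99262981-99263230 on the plus strand for Dusp6, chr3:37639697-37639946 on the plus strand for Spry1 and chr14:105896820-105897069 on the minus strand for Spry2. Capitals mark matches to the motifs named below.
Dusp1 promoter: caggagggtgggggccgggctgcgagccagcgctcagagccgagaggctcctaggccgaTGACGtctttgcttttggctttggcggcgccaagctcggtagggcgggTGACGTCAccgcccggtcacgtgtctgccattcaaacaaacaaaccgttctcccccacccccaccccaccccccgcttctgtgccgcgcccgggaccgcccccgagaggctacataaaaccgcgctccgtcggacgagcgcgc
Dusp6 promoter: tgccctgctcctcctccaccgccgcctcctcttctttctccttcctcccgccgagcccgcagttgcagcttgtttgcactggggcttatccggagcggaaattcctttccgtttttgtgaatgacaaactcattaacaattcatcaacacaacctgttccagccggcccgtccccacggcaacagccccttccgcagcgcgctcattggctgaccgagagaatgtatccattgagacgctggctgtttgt
Spry1 promoter: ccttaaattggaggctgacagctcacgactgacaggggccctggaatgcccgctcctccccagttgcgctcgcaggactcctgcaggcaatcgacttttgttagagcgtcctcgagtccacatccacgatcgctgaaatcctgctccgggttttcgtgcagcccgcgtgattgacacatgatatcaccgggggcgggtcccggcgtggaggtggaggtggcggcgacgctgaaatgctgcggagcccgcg
Spry2 promoter: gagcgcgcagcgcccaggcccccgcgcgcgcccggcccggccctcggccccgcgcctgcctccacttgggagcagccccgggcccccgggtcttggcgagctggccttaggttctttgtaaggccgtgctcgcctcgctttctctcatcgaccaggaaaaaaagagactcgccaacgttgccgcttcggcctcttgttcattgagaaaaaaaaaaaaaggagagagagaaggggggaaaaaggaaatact
The motifs searched on both strands were TGACGTCA (the full cAMP response element), its core TGACG and an AP-1 site (TGANTCA). An ETS site (CCGGAA, an extended form of the core GGAA) and the CArG box bound by SRF were searched too. The Dusp1 window held 1 TGACGTCA, beginning 143 bases before the start, and 3 matches to TGACG, of which 2 lie within TGACGTCA on either strand and 1 begins 191 bases before the start. Of all 32851 RefSeq promoter windows of this length, 1.55% held TGACGTCA, 17.8% TGACG, 6.75% TGANTCA, 12% CCGGAA and 1.47% a CArG box. None of these motifs, as spelled, was found in the windows of Dusp6, Spry1, Spry2, Spred1, Etv1 or Etv5, which describes these windows only. The shorter ETS core GGAA was not searched, and the printed Dusp6 and Spry2 windows hold it. Windows of 7 of the 10 genes were searched. Those of Dusp4, Spry4 and Etv4 were not, so nothing is said of their motifs.

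The tables summed to between 772637 and 797758 TPM per library, and depth is unknown beyond a stated minimum of 20 M reads, since TPM keep no depth. Vehicle library 1 stood apart: mt-Nd3 was listed at 0 there and at 8716 to 13261 TPM in the other 11 libraries, and its summed mitochondrial transcripts were 86422 TPM where the others had 147539 to 183001. Its part in the results was not tested beyond leaving it out, and those values stand beside them. All 8 OPC markers were detected, and Olig1 was the largest part of their sum. The sum was 1967 to 2347 TPM in vehicle, 1577 to 1728 in CPC, 1458 to 1726 in AEBDAC and 1248 to 1357 in MTOAC. Fold changes were positive for 1, 1 and 0 of the 8 with CPC, AEBDAC and MTOAC, against 28.9%, 33% and 28.3% of all genes. Of 8 neuronal markers 7 passed the filter, with sums of 434 to 483 TPM in vehicle, 333 to 400 in CPC, 318 to 353 in AEBDAC and 266 to 353 in MTOAC, most of it from Map2. Mesenchymal markers had 2 of 8 past the filter and Pdgfrb at 0. They summed to 39.2 to 55.1 TPM in vehicle, 43.3 to 79.5 in CPC, 52.1 to 97.2 in AEBDAC and 56.8 to 86.8 in MTOAC. Acta2 made up most of each sum. Of 8 astrocyte markers 7 passed, and most of their sum came from Aldoc. It was 250 to 275 TPM in vehicle, 228 to 236 in CPC, 254 to 266 in AEBDAC and 201 to 246 in MTOAC. Of 8 mature oligodendrocyte markers 3 passed, with Mog at 0. Their sums were 52.7 to 75.1 TPM in vehicle, 37.4 to 51.6 in CPC, 36.3 to 51.9 in AEBDAC and 35.5 to 47.2 in MTOAC. Microglial markers summed to at most 3.39 TPM in any library, with Cx3cr1 at 0, and 2 of 8 pluripotency markers passed, with Zfp42 and Fgf4 at 0. In such bulk samples fewer cells of a type and less RNA per cell cannot be told apart, and the part of these shifts in the results below was not tested.

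In vehicle the 10 genes spanned a wide range of levels, and TPM, being scaled for length, allow them to be ordered. Etv1 stood highest at 94.5 ± 15.8 TPM (mean ± SD, n = 3 here and throughout), followed by Etv4 at 61.0 ± 8.20. Spry1 (27.1 ± 15.9), Spry2 (24.7 ± 11.7) and Dusp6 (18.7 ± 10.4) came next and their libraries overlapped. Spry4 (9.16 ± 4.92), Dusp1 (5.63 ± 0.946), Dusp4 (3.04 ± 1.39), Etv5 (2.36 ± 1.08) and Spred1 (1.41 ± 0.209) were lower. Of neighbours in this order, the libraries did not overlap between Etv1 and Etv4, Etv4 and Spry1, Dusp1 and Dusp4, or Etv5 and Spred1, and overlapped for the others. In MTOAC the order was different, with Spry2 first at 94.2 ± 27.0 TPM, Etv4 at 66.8 ± 9.09, Dusp6 at 65.5 ± 33.0 and Etv1 at 61.0 ± 4.63, and the libraries of these 4 overlapped.

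Spry2, a Sprouty inhibitor of receptor tyrosine kinase signaling, rose with MTOAC. The gene lies at chr14:105891947-105896819 on the minus strand (GRCm38). Its level in libraries 1, 2 and 3 was 16.8, 38.2 and 19.2 TPM in vehicle, 25.9, 90.1 and 60.9 in CPC, 44.5, 114 and 82.5 in AEBDAC and 64.7, 118 and 100.5 in MTOAC. Every AEBDAC and MTOAC library lay above every vehicle library, while CPC library 1 lay within the vehicle range. The mean in MTOAC was 3.82 times that in vehicle, and the log2 fold change, fitted on log2(TPM + 1) and so understated for low genes, was 1.94 ± 0.47 (SE; 95% interval 0.90 to 2.98; limma, adjusted p = 0.0383). With AEBDAC it was 1.65 ± 0.47 (adjusted p = 0.101) and with CPC 1.14 ± 0.47 (adjusted p = 0.334), and neither passed the threshold of 0.05. The MTOAC call was kept without vehicle library 2 (adjusted p = 0.0456) and lost without vehicle library 1 (0.113) or 3 (0.0916) or MTOAC library 1 (0.0571), 2 (0.121) or 3 (0.0733), with limma fold changes of 1.72 to 2.29 log2.

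The other Sprouty genes had higher means with each compound and did not pass the test. Spry4 was listed at 4.03, 13.8 and 9.62 TPM in vehicle, 6.32, 26.5 and 27.2 in CPC, 12.6, 31.6 and 33.8 in AEBDAC and 18.4, 31.2 and 37.8 in MTOAC. Its MTOAC libraries lay above all vehicle libraries, and the log2 fold changes were 0.95 ± 0.58 for CPC, 1.43 ± 0.58 for AEBDAC and 1.64 ± 0.58 for MTOAC (limma, adjusted p = 0.496, 0.210 and 0.106). Spry1 was listed at 16.7, 45.4 and 19.2 TPM in vehicle, 18.1, 63.9 and 45.5 in CPC, 34.9, 75.8 and 50.04 in AEBDAC and 35.9, 70.3 and 51.1 in MTOAC. Vehicle library 2 lay within the range of all 3 compounds, and the fold changes were 0.60 ± 0.49, 1.03 ± 0.49 and 1.01 ± 0.49 log2 (adjusted p = 0.614, 0.280 and 0.227). Spry1 overlaps Gm42922 on the other strand and Spry4 overlaps Gm27369 and Gm27804, and without strand the reads of overlapping genes cannot be told apart. With 1 library left out the values ran from 0.51 to 1.59 for Spry4 and 0.22 to 1.11 for Spry1 with CPC, 0.99 to 1.86 and 0.75 to 1.46 with AEBDAC, and 1.21 to 1.99 and 0.75 to 1.45 with MTOAC.

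Spred1, a Sprouty-related inhibitor that works with neurofibromin on RAS, was low throughout, at 1.54, 1.53 and 1.17 TPM in vehicle. It was listed at 2.25, 2.72 and 3.08 TPM in CPC, 2.17, 1.86 and 2.48 in AEBDAC and 2.07, 1.70 and 5.48 in MTOAC. All 9 exposed libraries lay above the vehicle range, and Spred1 was the 1 gene of the 10 for which this held with CPC. Its fold changes were 0.61 ± 0.31, 0.39 ± 0.31 and 0.65 ± 0.31 log2 for CPC, AEBDAC and MTOAC (limma, adjusted p = 0.413, 0.519 and 0.225), and none passed. At these low levels the added 1 TPM understates them, and the ratios of means were 1.90, 1.53 and 2.18.

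Among the phosphatase genes, Dusp6, whose product acts on ERK in the cytoplasm, had the widest spread. It was listed at 7.01, 27.0 and 22.02 TPM in vehicle, 9.55, 56.1 and 70.6 in CPC, 18.7, 65.3 and 88.5 in AEBDAC and 30.2, 71.0 and 95.4 in MTOAC. Within a group the highest library was 3.16 to 7.39 times the lowest, which is as wide as the 2.43 to 3.51 times that separated the compound means from the vehicle mean. The log2 fold changes were 1.02 ± 0.80 for CPC, 1.502 ± 0.80 for AEBDAC and 1.80 ± 0.80 for MTOAC (limma, adjusted p = 0.596, 0.331 and 0.192), and none passed. The CPC value was 0.47 without vehicle library 1 and 1.89 without CPC library 1, and leaving out 1 library gave 0.95 to 2.16 with AEBDAC and 1.24 to 2.27 with MTOAC.

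Dusp1, an immediate early gene whose nuclear product acts on ERK, p38 and JNK, was listed at 4.72, 6.61 and 5.55 TPM in vehicle. It stood at 4.91, 14.2 and 16.0 TPM in CPC, 7.67, 17.9 and 24.4 in AEBDAC and 11.5, 17.9 and 23.8 in MTOAC. The AEBDAC and MTOAC libraries lay above every vehicle library, and CPC library 1 did not. The fold changes were 0.81 ± 0.46, 1.29 ± 0.46 and 1.45 ± 0.46 log2 for CPC, AEBDAC and MTOAC (limma, adjusted p = 0.462, 0.164 and 0.0778). The Dusp1 gene model overlaps Ergic1 and Gm8225 on the other strand, so its reads are uncertain. Dusp4, another nuclear phosphatase, was listed at 1.54, 3.30 and 4.28 TPM in vehicle, 3.06, 4.51 and 8.19 in CPC, 6.23, 6.37 and 7.12 in AEBDAC and 4.82, 5.65 and 9.58 in MTOAC. It too lay above the vehicle range in every AEBDAC and MTOAC library, with fold changes of 0.61 ± 0.35, 0.97 ± 0.35 and 0.94 ± 0.35 log2 (adjusted p = 0.473, 0.175 and 0.128). Leaving out 1 library moved the CPC values to between 0.53 and 1.29 for Dusp1 and between 0.29 and 0.88 for Dusp4.

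**Figure D1:**
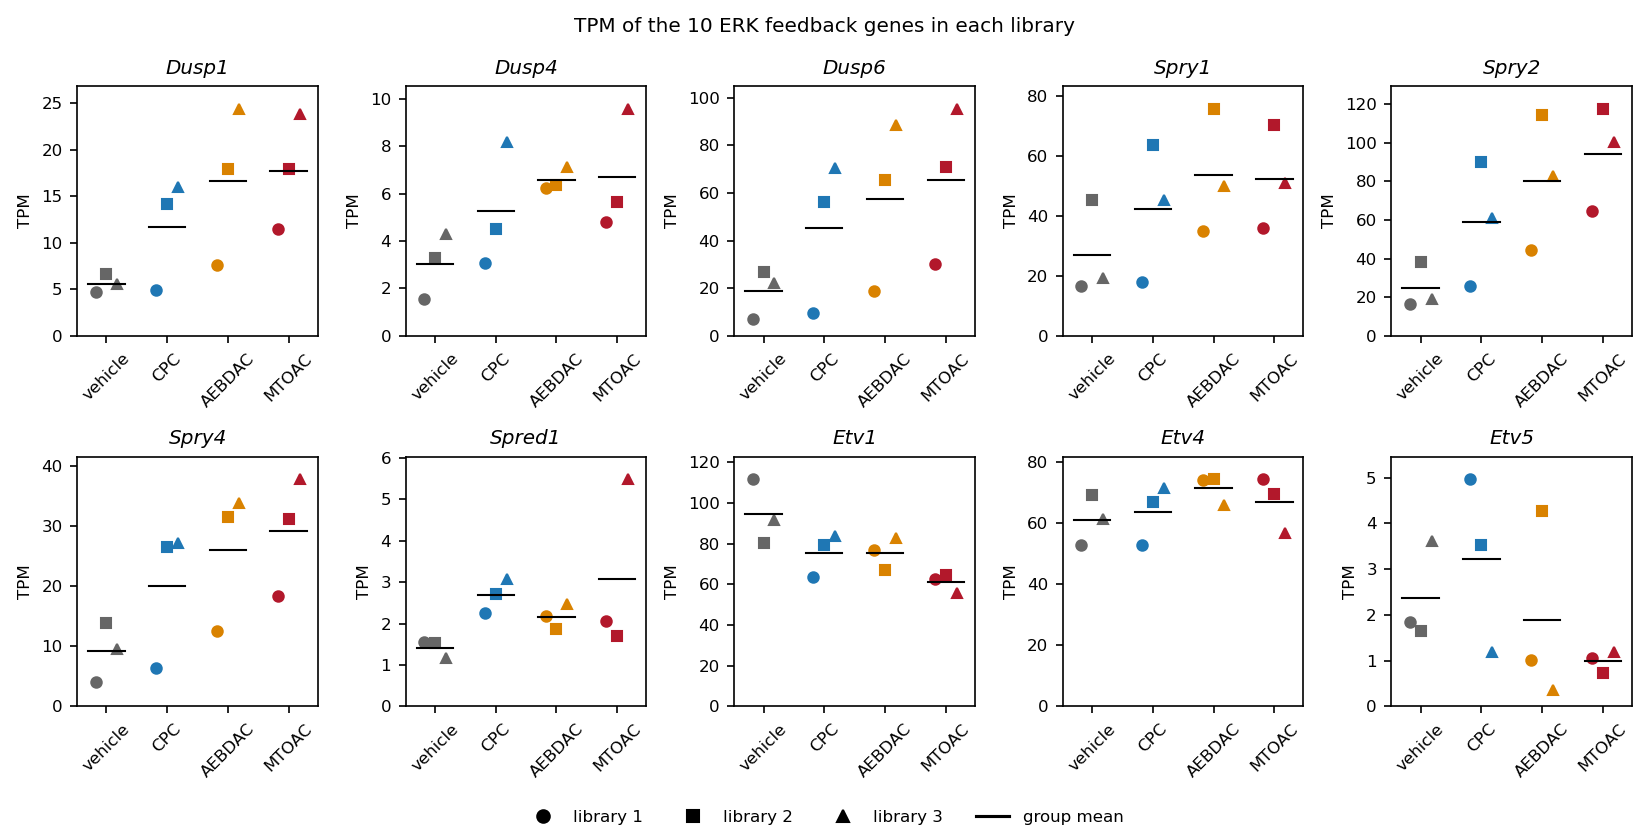
TPM of the 10 genes in the 12 libraries, 1 panel per gene with its own linear axis from 0. Each point is 1 library, a circle for library 1, a square for library 2 and a triangle for library 3, and the line is the group mean. Library 1 is the lowest point of all 4 groups for Dusp1, Dusp4, Dusp6, Spry1, Spry2 and Spry4, and Etv1 falls from 80.5 to 112 TPM in vehicle to 55.8 to 64.7 TPM in MTOAC.

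The ETV genes did not follow the phosphatase and Sprouty genes. Etv1 (chr12:38779380-38870484, plus strand, GRCm38) fell with MTOAC: it was listed at 112, 80.5 and 91.5 TPM in vehicle, 63.4, 79.4 and 83.7 in CPC, 76.8, 66.8 and 82.6 in AEBDAC and 62.35, 64.7 and 55.8 in MTOAC. The MTOAC mean was 0.645 times the vehicle mean with no overlap, and the log2 fold change was -0.61 ± 0.15 (95% interval -0.94 to -0.29; limma, adjusted p = 0.0377). With CPC and AEBDAC it was -0.32 ± 0.15 in both (adjusted p = 0.383 and 0.282), with overlapping libraries. The median of all tested genes also lay below vehicle, at -0.22 log2 with MTOAC, and relative to it Etv1 stood at -0.40 and Spry2 at 2.16. Quantile normalization, which removes that shift, left Etv1 at -0.48 and ended its call (adjusted p = 0.0733). It was kept without vehicle library 2 (0.0467) and lost without vehicle library 1 (0.102) or 3 (0.0783) or MTOAC library 1 (0.0817), 2 (0.0847) or 3 (0.0755).

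Etv4 did not pass with any compound. It was listed at 52.8, 69.2 and 61.2 TPM in vehicle and between 52.8 and 74.3 TPM in the 9 exposed libraries, with fold changes of 0.06 ± 0.15, 0.23 ± 0.15 and 0.13 ± 0.15 log2 for CPC, AEBDAC and MTOAC (limma, adjusted p = 0.901, 0.443 and 0.659). Etv5 was near the filter and erratic, at 1.84, 1.65 and 3.61 TPM in vehicle, 4.97, 3.54 and 1.19 in CPC, 1.02, 4.27 and 0.367 in AEBDAC and 1.05, 0.737 and 1.19 in MTOAC. Its MTOAC libraries lay below the vehicle range, and the fold change there was -0.72 ± 0.50 log2 (limma, adjusted p = 0.409).

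Counted over the 10 genes, MTOAC raised 1 (Spry2) and lowered 1 (Etv1), and 8 did not pass, where 6.54% of all 12009 tested genes were called. With AEBDAC none of the 10 passed (limma; 4 at an unadjusted p under 0.05, and 0 by limma without trend and robust moderation), against 1.27% of all genes. With CPC none passed either (1 at an unadjusted p under 0.05, and 0 without that moderation), against 0.0666%. These counts leave the library numbers out of the fit. A limma fit with the number as a block, described below, called Spry2 with CPC (adjusted p = 0.0398). The median of the 10 fold changes lay at 0.61, 0.9975 and 0.98 log2 for CPC, AEBDAC and MTOAC, while the median of all tested genes lay at -0.17, -0.16 and -0.22. Relative to all genes it was 0.78 with CPC (0.49 without vehicle library 1 and 1.18 without CPC library 1), 1.16 with AEBDAC (0.79 to 1.44 without 1 library) and 1.20 with MTOAC (0.86 to 1.51). The calls over all genes also rested on single libraries: leaving out any 1 took them from 8 to between 1 and 6 with CPC, from 153 to between 9 and 105 with AEBDAC and from 785 to between 152 and 584 with MTOAC. Fold changes were positive for 9, 8 and 8 of the 10, against 28.9%, 33% and 28.3% of all genes. These comparisons share the vehicle libraries and are not independent of each other.

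Counted by overlap alone, every library lay above every vehicle library for 1 of the 10 genes with CPC (Spred1), where this held for 2.58% of all genes. With AEBDAC it held for 4 (Dusp1, Dusp4, Spry2 and Spred1), against 5.65%, and with MTOAC for 6 (Dusp1, Dusp4, Dusp6, Spry2, Spry4 and Spred1), against 3.99%. Every MTOAC library lay below every vehicle library for 2 of the 10 (Etv1 and Etv5), while 22.4% of all genes did so.

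**Figure D2:**
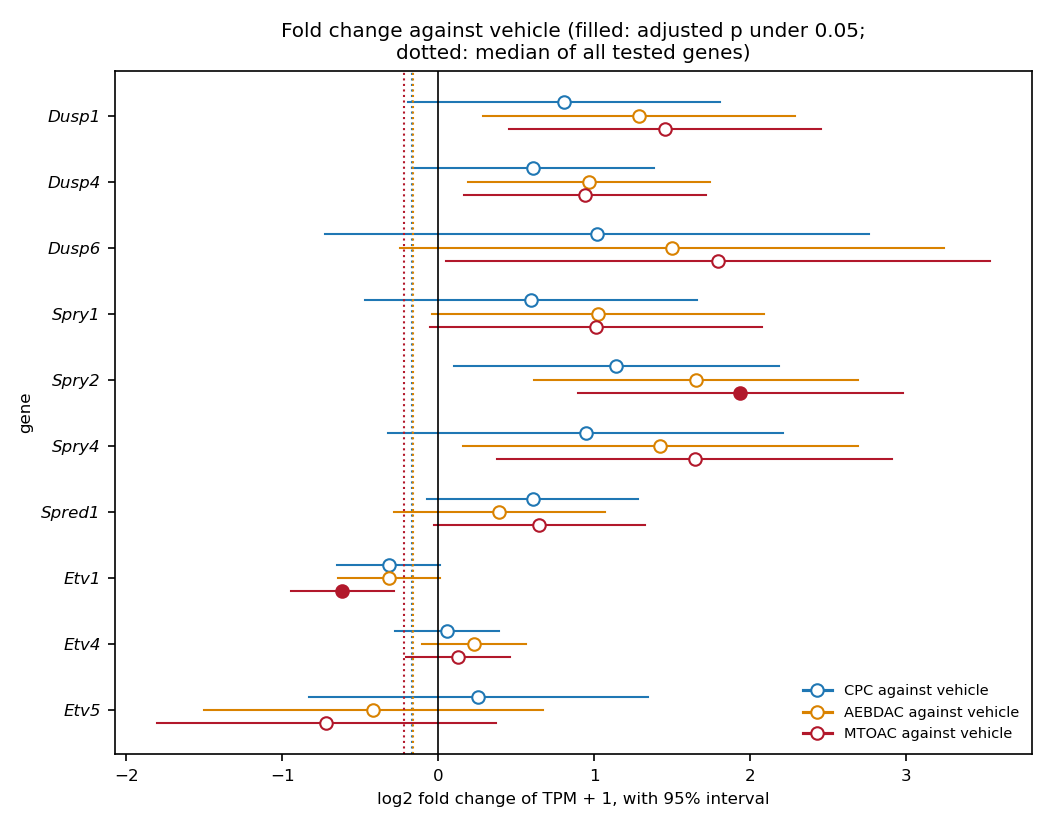
Log2 fold change against vehicle on log2(TPM + 1) for each of the 10 genes and each compound, with 95% intervals from limma (filled where adjusted p was under 0.05). The dotted lines are the medians of all 12009 tested genes. The phosphatase, Sprouty and Spred1 estimates lie above 0 for all 3 compounds, most with intervals that reach 0, and Etv1 lies below.

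The phosphatase and Sprouty genes varied together between libraries of the same group. Library 1 was the lowest of its group in all 4 groups for 6 of the 10 genes, Dusp1, Dusp4, Dusp6, Spry1, Spry2 and Spry4, a grouping made after their values were seen. Of the 12009 tested genes 2.81% were lowest in library 1 of every group, 13.4% in library 2 and 2.70% in library 3, with none of the 10 genes among the latter 2. After the group means were removed, Dusp6 and Spry4 had a Pearson r of 0.99 over the 12 libraries and Spry1 and Spry2 of 0.98. Those were the highest values among the 6 genes. The lowest were 0.41 for Dusp4 and Spry1 and 0.43 for Dusp4 and Spry2. These correlations describe libraries that share numbers and vehicle and carry no test. Etv1 and Etv4 did not share the pattern, their highest library being at most 1.39 times the lowest of the group. What the numbers stand for is not given in the labels. Library 1 was the lowest in CPC, AEBDAC and MTOAC as well as in vehicle.

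For CPC and vehicle the library numbers met the rule for pairing. Over those 6 genes the same-numbered CPC library stood above the vehicle library in 18 of 18 ratios, by 1.04 to 3.21 times. Of all 12009 genes 7.68% were higher in CPC at each of the 3 numbers, and the 6 genes were picked after their values were seen. The lowest ratio was that of Dusp1 in library 1 and the highest that of Dusp6 in library 3. The block was fitted over all 12 libraries, with number effects shared by the 4 groups. Against vehicle, AEBDAC (correlations 0.08, 0.25 and 0.03) and MTOAC (-0.03, 0.35 and -0.19) did not meet the rule. No blocked fit of CPC and vehicle alone was run. With this block Spry2 rose with CPC (1.14 log2, limma, adjusted p = 0.0398, against 0.334 without the block). It was the 1 called gene of the 10, where 1.53% of all genes were called. That call was kept without vehicle library 1 (0.0477) and lost without vehicle library 2 (0.154) or 3 (0.0589) or CPC library 1 (0.0645), 2 (0.188) or 3 (0.165). The 184 genes called in that fit fell to 82, 0 and 82 without vehicle library 1, 2 or 3 and to 5, 3 and 1 without CPC library 1, 2 or 3.

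The 3 compounds were compared with each other in 3 pairs, each at its own IC75, so nothing is said of equal concentrations. CPC has a pyridinium ring, AEBDAC an ethylbenzyl ring and MTOAC octyl chains and no aromatic ring. No gene of the 12009 was called in any pair (limma; 0% in each, 211 genes at an unadjusted p under 0.05 for AEBDAC against CPC, 449 for MTOAC against CPC and 307 for MTOAC against AEBDAC, and 0 without trend and robust moderation), and of the 10 genes 0 reached an unadjusted p under 0.05 in these fits. Spry2 differed by 0.51 log2 between AEBDAC and CPC (95% interval -0.53 to 1.55), by 0.79 between MTOAC and CPC (-0.25 to 1.84) and by 0.28 between MTOAC and AEBDAC (-0.76 to 1.33). For Dusp6 the same differences were 0.48 (-1.26 to 2.23), 0.78 (-0.97 to 2.52) and 0.30 (-1.45 to 2.04). Etv1 differed by 0.0026 log2 between AEBDAC and CPC (-0.33 to 0.33), by -0.30 between MTOAC and CPC (-0.63 to 0.03) and by -0.30 between MTOAC and AEBDAC (-0.63 to 0.03). The library numbers met the rule for pairing between AEBDAC and CPC and between MTOAC and AEBDAC, and the blocked fit called 0 of the 12009 in either pair (limma; 415 and 527 at an unadjusted p under 0.05). The blocked interval of Spry2 was then 0.07 to 0.95 for AEBDAC against CPC (limma, unadjusted p = 0.0275, adjusted p = 1), as the 1 member under 0.05 before adjustment, and -0.15 to 0.72 for MTOAC against AEBDAC. For Dusp6 they were -0.07 to 1.03 and -0.26 to 0.85, and for Etv1 -0.35 to 0.35 and -0.65 to 0.05. The compounds are not shown to act alike.

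Other brakes of the pathway were counted beside all genes, of which 0.0333%, 0.391% and 0.791% were called higher with CPC, AEBDAC and MTOAC. Of 22 other phosphatases and feedback inhibitors 19 were tested, and 0, 1 and 2 rose with CPC, AEBDAC and MTOAC, with none lower (limma; with CPC 3 at an unadjusted p under 0.05 and 0 without trend and robust moderation). Dusp7, a cytoplasmic ERK phosphatase, was listed at 17.7, 13.96 and 13.6 TPM in vehicle and at 23.9, 22.5 and 25.2 in MTOAC, and rose with AEBDAC and MTOAC (0.73 and 0.64 log2; limma, adjusted p = 0.0341 and 0.0220). Dusp8, which acts mainly on JNK and p38, rose with MTOAC from 5.85 ± 0.990 to 17.6 ± 6.24 TPM (1.40 log2, adjusted p = 0.0238). Dusp8 lost its call without any of 5 of the 6 libraries (highest adjusted p = 0.0650), and Dusp7 without 4 of 6 with MTOAC (highest 0.0658) and 5 of 6 with AEBDAC (highest 0.164). The list's median lay 0.11, 0.24 and 0.27 log2 above that of all genes.

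Upstream of ERK the receptors and ligands split in direction with MTOAC and gave no call with CPC or AEBDAC. Of 13 receptors tested 1 rose and 2 fell with MTOAC, where 0.791% of all genes were called higher and 5.75% lower. With CPC 2 of the 13 receptors and 1 of the 11 ligands were at an unadjusted p under 0.05, with AEBDAC 3 of each, and limma without trend and robust moderation called 0 of them. Pdgfra, the PDGF receptor that drives OPC proliferation, was listed at 29.3, 35.6 and 29.3 TPM in vehicle and at 11.5, 16.8 and 11.6 in MTOAC (-1.20 log2; limma, adjusted p = 0.0319). Kit, another receptor tyrosine kinase, fell by 0.76 on the log2 scale (0.0400), and Fgfr2, a fibroblast growth factor receptor, rose by 0.79 (0.0463). Of 11 ligands Pdgfa, which encodes a ligand of Pdgfra, fell by 1.37 on the log2 scale (0.0361) and Hbegf, an EGF-receptor ligand that is itself induced by ERK, rose by 1.39 (0.0345). With CPC Hbegf passed in the fit with the block alone (0.0415), and that call was lost without any 1 of the 6 libraries (highest 0.188). Pdgfra, Fgfr2 and Pdgfa lost the call without any 1 of the 6 libraries (highest adjusted p = 0.0890, 0.112 and 0.109), and Kit and Hbegf without 5 of 6 (highest 0.125 and 0.102). Quantile normalization ended the calls of Pdgfra (0.123), Kit (0.112) and Pdgfa (0.112).

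The core of the cascade gave no call with any compound in the fit without the block. That fit called 0.0666%, 1.27% and 6.54% of all genes with CPC, AEBDAC and MTOAC. Of 23 tested genes for adaptors, RAS, RAF, MEK and ERK, 0 passed in each comparison with vehicle (limma; 0, 2 and 3 at an unadjusted p under 0.05 with CPC, AEBDAC and MTOAC, and 0 without trend and robust moderation), and the list's median lay within 0.08 log2 of that of all genes. Mapk3, which encodes ERK1, was listed at 5.96, 0.440 and 5.31 TPM in vehicle and 0, 6.28 and 3.59 in MTOAC (-0.31 log2; limma, adjusted p = 0.850), values too scattered to give a direction. With the block 1 of the 23 genes was called lower with AEBDAC and 2 with MTOAC, where the numbers did not meet the pairing rule. The block called 7.05% and 13.8% of all genes lower there. Without the block the receptors Fgfr1 and Igf1r stood at 0.24 and 0.07 log2 with MTOAC (0.345 and 0.916). Of 12 genes of the p38 and JNK pathway 0 passed with CPC or AEBDAC (2 in each at an unadjusted p under 0.05, and 0 without that moderation) and 1 with MTOAC, Map2k3, a kinase upstream of p38, which fell with MTOAC by 0.84 on the log2 scale (adjusted p = 0.0472) and lost the call without any 1 of the 6 libraries (highest 0.123) and with quantile normalization (0.160).

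Of 22 other ERK-induced transcripts tested, 16, 18 and 18 had positive fold changes with CPC, AEBDAC and MTOAC. Of all genes 28.9%, 33% and 28.3% were positive, and 0.0333%, 0.391% and 0.791% were called higher. Of these 22, 0 rose with CPC, 2 with AEBDAC and 4 with MTOAC, none fell (limma; with CPC 4 at an unadjusted p under 0.05 and 0 without trend and robust moderation), and the list's median lay 0.48, 0.71 and 0.82 log2 above that of all genes. Srf, the serum response factor that drives many immediate early genes, was listed at 41.0, 23.3 and 24.1 TPM in vehicle and at 82.5, 114 and 119 in AEBDAC and 80.0, 110.1 and 152 in MTOAC. It rose by 1.83 and 1.92 log2 (limma, adjusted p = 0.0195 and 0.00677). Fos, a subunit of AP-1, rose by 1.75 and 1.83 log2 with the same compounds (0.0320 and 0.0119). The MTOAC calls of Srf and Fos were kept without any 1 of the 6 libraries, while with AEBDAC Srf lost its call without 4 of 6 (highest 0.119) and Fos without 5 of 6 (highest 0.162). The remaining calls with MTOAC were Hbegf and Fosl2, an AP-1 gene listed at 0.0469, 0 and 0.0574 TPM in vehicle and at 5.34, 2.78 and 2.99 in MTOAC (adjusted p = 0.0482). Fosl2 lost its call without any 1 of the 6 libraries (highest 0.130) and with quantile normalization (0.0688). It passed the filter only through exposed libraries, and so could hardly have been called lower.

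Egr1, an early target of ERK, varied between libraries like the Dusp and Spry genes. It was listed at 0.599, 1.67 and 5.78 TPM in vehicle, 2.26, 8.76 and 18.8 in CPC, 3.21, 12.1 and 21.9 in AEBDAC and 3.24, 16.0 and 19.0 in MTOAC. Library 1 was again the lowest of each group, and the fold changes of 1.48, 1.81 and 1.88 log2 did not pass (limma, adjusted p = 0.467, 0.274 and 0.200), while with the block the CPC value did (0.0346) and lost its call without 5 of the 6 libraries (highest 0.176). Ccnd1, cyclin D1, whose transcription ERK promotes in dividing cells, stood at 247 ± 39.6 TPM in vehicle and 204 ± 52.8 in MTOAC (-0.29 log2, adjusted p = 0.479).

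Dusp1 also belongs to the genes that cAMP and its factor CREB induce. Of 14 others tested 1, 2 and 2 rose with CPC, AEBDAC and MTOAC, against 0.0333%, 0.391% and 0.791% of all genes. Nr4a1, an orphan nuclear receptor, rose with all 3 compounds (1.32, 2.06 and 1.91 log2; limma, adjusted p = 0.0246, 0.000531 and 0.00061). Library 1 was not its lowest in MTOAC, at 58.4, 60.9 and 56.3 TPM in MTOAC against 12.3, 17.1 and 15.6 in vehicle. Npas4, a transcription factor of neuronal activity, rose with AEBDAC and MTOAC by 2.41 and 2.40 log2 (0.00360 and 0.00228), and with CPC in the fit with the block (0.0179, against 0.0540 without it). In vehicle Npas4 was listed at 0.581, 0.844 and 1.004 TPM, so it passed the filter only through the exposed libraries. A gene let in that way could hardly have been called lower, so the calls of Npas4 say little of the list's direction. Btg2, an antiproliferative gene, fell with MTOAC from 150.3, 115 and 132 to 47.6, 23.6 and 25.1 TPM (-2.08 log2, adjusted p = 0.0146) and with CPC in the fit with the block (0.0304, against 0.2495). These blocked CPC calls were lost without 4 of the 6 libraries for Npas4 (highest 0.129) and 5 of 6 for Btg2 (highest 0.173). The AEBDAC and MTOAC calls of Nr4a1 and Npas4 were kept without any 1 of the 6 libraries, the CPC call of Nr4a1 was lost without 5 of 6 (highest 0.165), and that of Btg2 was lost without MTOAC library 2 (0.0551). The list's median lay 0.45, 0.61 and 0.57 log2 above that of all genes.

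**Figure D3:**
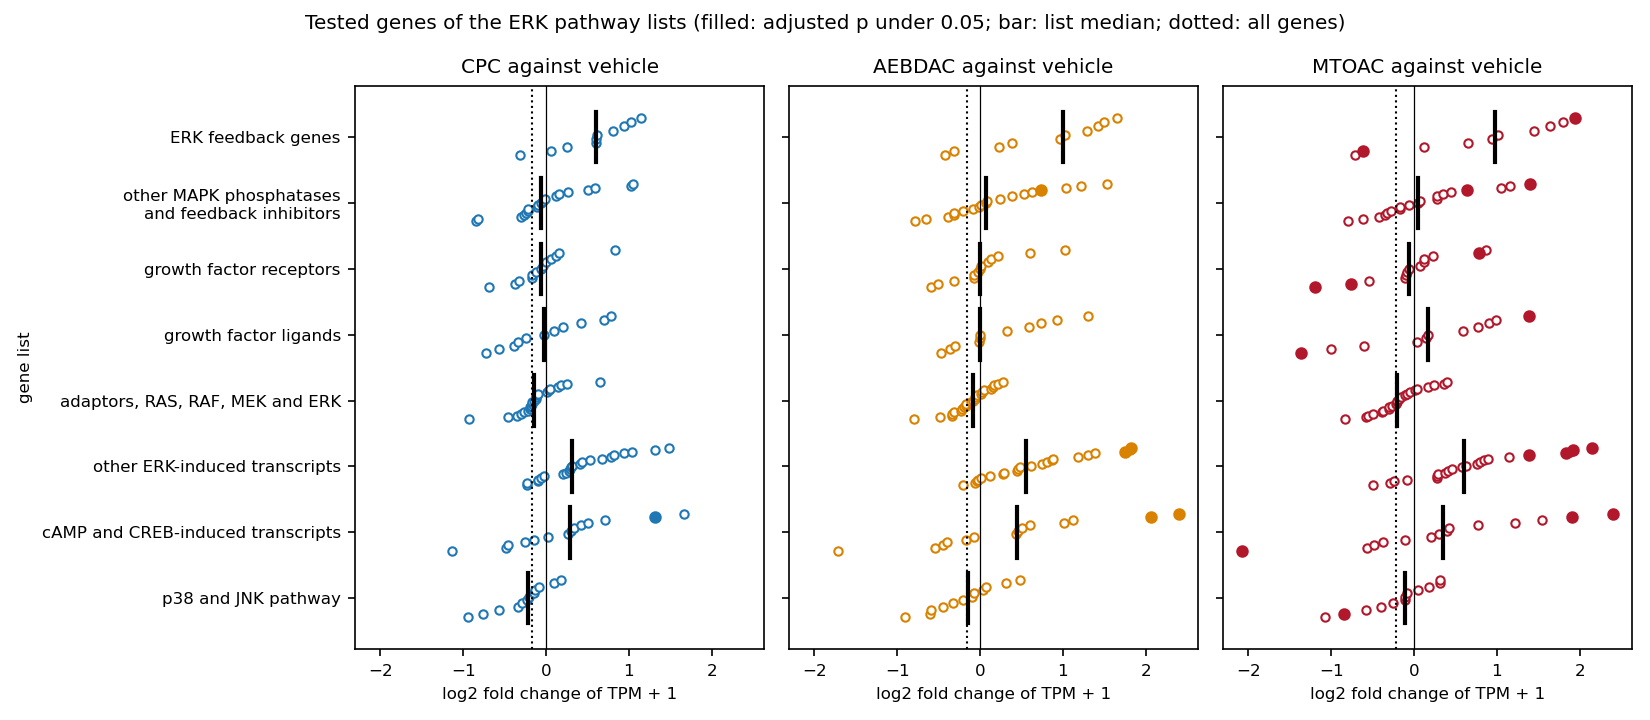
Log2 fold change against vehicle of every tested gene of each pathway list, 1 panel per compound, with genes of a list spread vertically in order of value. Points are filled where limma's adjusted p was under 0.05, bars are list medians and dotted lines the median of the 12009 genes tested. Measured from that median, the bars of the 10 feedback genes lie at 0.78, 1.16 and 1.20 for CPC, AEBDAC and MTOAC, those of the other ERK-induced and the cAMP-induced transcripts between 0.45 and 0.82, and those of the adaptors, RAS, RAF, MEK and ERK near 0.

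Over the 12 libraries and among the 8220 tested genes averaging 5 TPM or more, the genes outside the 10 whose log2(TPM + 1) was most like that of Spry2 were Cdyl, Ddx3x and Lyar (Pearson r 0.97 for each). For Dusp1 they were Ctps (0.97), Ccn1 (0.96) and Klf6 (0.96), and for Etv1 Kif22 (0.92), Cdk1 (0.90) and Smarcc2 (0.90). These values describe 12 libraries that fall into 4 groups and share numbers, and carry no test.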

How the data were processed

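Poly(A) RNA was sequenced from 12 libraries, 3 per group, taken to groups by their treatment labels. Per the submitters' processing notes Salmon and the build mm10 were used, and neither a version nor an annotation is given there. The authors deposited TPM per gene symbol for each library. TPM are scaled within a library, so a rise of abundant transcripts lowers all others, and they keep no depth. The kit is not described in the labels as marking strand. Coordinates of gene models came from GENCODE on GRCm38, the assembly of mm10, and promoters from RefSeq on GRCm38.p6.

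Differences were tested on log2(TPM + 1) with limma 3.58.1 (R 4.3.3, trend and robust options) for 12009 genes that reached 1 TPM in 3 or more libraries. All 12 libraries entered 1 fit with 4 group means. P-values are two-sided, with Benjamini-Hochberg adjustment over all genes of a comparison, and called under 0.05. With 3 libraries against 3, the smallest exact permutation p is 0.1. The same fit was also run on simulated data with normal noise drawn separately for each gene. Those data held no effect shared between genes and no library like vehicle library 1, so they do not vouch for the calls here.

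Library numbers come from the sample titles, which name no shared culture. They were taken to pair libraries where libraries of the same number deviated together, with a correlation over 0.1 across genes in all 3 pairs. This held for CPC and vehicle (0.34, 0.31 and 0.23), AEBDAC and CPC (0.28, 0.42 and 0.23) and MTOAC and AEBDAC (0.33, 0.36 and 0.30), and not for the other comparisons. The block was fitted on the libraries of all groups at once, not on the paired groups alone.

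The 10 genes and the pathway lists were chosen with earlier results of these data known. Named beside them were at most 4 called genes per list and comparison, 8 fixed genes, of which 1 is not reported here, and for 3 members the 3 most similar genes. Alternatives were a pseudocount of 0.1, no filter, quantile normalization, TPM rescaled without mitochondrial genes, the replicate block, limma without trend and robust moderation, 2 groups alone and leaving out each library. Leaving out the 4 libraries numbered 1, the block with a library left out and the block with the mitochondrial rescaling were added after seeing the data.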

Additional observations from a re-analysis of the deposited data

How the results depend on the processing

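In all 16 alternatives of each comparison with vehicle the fold changes of Dusp1, Dusp4, Dusp6, Spry1, Spry2, Spry4 and Spred1 stayed positive. That of Etv1 stayed negative in all 16. The members' medians relative to all genes were 0.78, 1.16 and 1.20 for CPC, AEBDAC and MTOAC. Without 1 library they ran from 0.49 to 1.18, 0.79 to 1.44 and 0.86 to 1.51. These moves were smaller than the SD over libraries (0.70, 0.49 and 0.41). A mean of 3 libraries can shift by only part of their SD when 1 is left out, so that comparison could hardly have come out otherwise. Same-numbered ratios of the 6 Dusp and Spry genes that varied together were above 1 in 18 of 18 with AEBDAC and MTOAC too, at 1.62 and 1.55 or more. The count of members called depended on the fit. Against 2 with MTOAC it was 0 without the filter, 0 with only the libraries of the 2 groups, 0 without the 4 libraries numbered 1, 1 with quantile normalization, 1 without trend and robust moderation, and 0 to 2 without 1 library. With the replicate number as a block it was 7 with MTOAC, 6 with AEBDAC and 1 with CPC, against 15.9%, 8.93% and 1.53% of all genes. The counts of members were the same with the block and quantile normalization or the block and mitochondrial rescaling. The numbers did not meet the pairing rule for AEBDAC or MTOAC against vehicle, where the blocked calls were Dusp1, Dusp4, Dusp6, Spry1, Spry2 and Spry4, plus Etv1 (lower) with MTOAC, or Spred1 in its place when quantile normalization was added. With a library left out as well, the block called 1 to 5 members higher with AEBDAC and 4 to 6 with MTOAC. In those fits 104 to 1057 of all genes were called with AEBDAC and 649 to 2132 with MTOAC. Over its alternatives the adjusted p with MTOAC ran from 0.00132 to 0.121 for Spry2 and from 0.0236 to 0.164 for Etv1. Over all genes the count went from 8 to 16 with CPC with quantile normalization, to 184 with the block, 115 with both and 0 with 2 groups alone. With AEBDAC it went from 153 to 38 without the filter, 1072 with the block, 907 with block and quantile normalization and 3 with 2 groups alone. With MTOAC it went from 785 to 404, 1904, 1194 and 17, and to 430 with quantile normalization, 213 higher and 217 lower in place of 95 and 690. Between compounds 0 became 1 with 2 groups alone for AEBDAC against CPC and MTOAC against AEBDAC, and without CPC library 2 for MTOAC against CPC. Some uncalled log2 values turned in sign. Without the 4 libraries numbered 1 these were Etv4 with MTOAC (-0.052), Etv5 with CPC (-0.15), Igf1r with CPC (-0.0195), Mapk3 with AEBDAC (0.27) and MTOAC (0.94) and Pdgfa with CPC (0.0791). Mapk3 with AEBDAC was 0.0131 at a pseudocount of 0.1 and 0.10 with quantile normalization, with and without the block. Without 1 library Etv4 ran from -0.0403 to 0.19 and Etv5 from -0.0476 to 0.675 with CPC, and Etv5 from -0.97 to 0.0022 with AEBDAC. Igf1r ran from -0.14 to 0.28 with CPC, -0.12 to 0.35 with AEBDAC and -0.12 to 0.30 with MTOAC, Mapk3 from -0.85 to 0.32 with AEBDAC and -1.04 to 0.54 with MTOAC, and Pdgfa from -0.60 to 0.0961 with CPC. Apart from the filter and the left-out libraries, which change the genes or samples fitted, the cause was not tested. TPM without counts give no limit from depth.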
